A study of Xenopus laevis with 9 samples.

Results

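Expression after 3 h with TCDD was compared with expression after 3 h with the solvent alone in XLK-WG, a kidney cell line of the frog Xenopus laevis. TCDD, a chlorinated dioxin, was given at 100 nM, and the control cells received dimethyl sulfoxide (DMSO) at 0.25%, the concentration that every flask of the series contained. The comparison used the 3 arrays titled TCDD and the 3 titled DMSO CH, 6 of the 9 arrays of the series. The other 3 arrays came from cells given the ligand FICZ at 100 nM for the same 3 h. They entered the normalization, the signal filter and the estimate of spread. Differences of FICZ from DMSO and from TCDD were tested in the same fit and are given for some genes. All cells were grown close to confluence in flasks, and the labels call the 3 arrays of a group biological replicates of this single line. The meaning of the tag CH in the control titles is not given in the sources used here, and whatever it marks cannot be told apart from the absence of ligand.

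TCDD binds a receptor for flat aromatic molecules, the aryl hydrocarbon receptor (AHR). This transcription factor waits in the cytoplasm with the chaperone HSP90. The bound receptor enters the nucleus, pairs with ARNT and switches on a battery of detoxification genes led by cyp1a1, a cytochrome P450 that oxidises them. Frogs are known for their low sensitivity to dioxins, and frog AHR proteins bind TCDD with low affinity. The genome of this frog was doubled, and a gene often exists as 2 copies, written .L and .S, so that a response can often be read in both.

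Each of 15491 probe sets, groups of probes meant to read a transcript, gave a log2 signal per array, and a difference of 1 on that scale is 2-fold. The 11618 probe sets with a mean log2 signal of at least 4.88 were tested, and 7408 of them carry a single gene symbol, for 6114 genes. Another 162 carry several symbols, and probe sets were not screened for probes shared between copies or genes. A probe set was called where its adjusted p in limma's moderated test was under 0.05. Array medians lay between 6.67 and 6.87 before normalization and array pairs correlated at 0.97 to 0.989. Arrays have no read depth, so their number, 3 per group, limits the precision. Of the spread within groups over the series, 22.6% came from DMSO replicate 2 and 14.1% from TCDD replicate 1, the highest shares of the 9 arrays.

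The kidney label was read against its markers. Over all genes 6114 of the 7531 measured passed the filter, and of the kidney epithelial list 15 of 27 did. They included the keratins krt19.L (mean log2 signal with DMSO 11.61) and krt7.L (8.69), the sodium pump subunit atp1b1.S (10.48) and the nephric transcription factors pax2.L (6.10), wt1.L (6.39) and pax8.L (5.39). Probe sets for cdh1.S, cdh6.L, epcam.L, epcam.S, lhx1.L and hnf4a.S, which mark cell adhesion or tubule identity in kidney, lay under the filter level. The mesenchymal filament gene vim.L stood at 13.14. Of the mesenchymal list 13 of 19 genes passed the filter, of the endothelial and blood list 11 of 26, and of the muscle and nerve list 13 of 43. No marker of the kidney, mesenchymal, endothelial and blood, or muscle and nerve lists passed the test with TCDD, and their medians lay between -0.08 and 0.04.

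Both copies of cyp1a1 and a single further probe set rose with TCDD, and no probe set was called lower. The 3 called probe sets were 0.0258% of the 11618 tested. By limma 145 probe sets (1.25%) were lower and 253 (2.18%) were higher at an unadjusted p under 0.05, 398 (3.43%) in all. That total moved with single arrays, from 218 without TCDD replicate 3 to 870 without DMSO replicate 1, and was 2244 with array weights.

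The log2 signal of cyp1a1.L was 7.01, 6.32 and 6.60 in the DMSO arrays and 10.37, 9.43 and 9.46 in the TCDD arrays, in order of replicate number. The lowest TCDD array stood well above the highest DMSO array, and replicate 1 was the highest of both groups. The log2 change was 3.11 (SE 0.21), 8.62-fold, with an adjusted p of 1.1e-05 by limma. cyp1a1.S read 6.87, 6.14 and 6.25 with DMSO and 9.25, 8.23 and 8.17 with TCDD. Its groups did not overlap either, and TCDD replicate 1 again stood above the other 2 TCDD arrays. Its log2 change was 2.13 (SE 0.25), 4.38-fold, with an adjusted p of 0.0026 by limma. Without TCDD replicate 1 the log2 changes of cyp1a1.L and cyp1a1.S were 2.80 and 1.78, and both stayed past the threshold.

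The third called probe set, Xl.9596.1.A1_at, has no gene symbol in the platform annotation. It read 9.86, 9.73 and 10.01 with DMSO and 11.13, 10.76 and 10.76 with TCDD, so that the arrays of both groups lay close together and apart from the other group. The log2 change was 1.02 (SE 0.11, adjusted p 0.0011 by limma). With FICZ the same probe set read 10.34, 10.26 and 10.41, between the other groups in every array. The FICZ minus DMSO difference was 0.47 (adjusted p 0.077) and the FICZ minus TCDD difference was -0.55, with an adjusted p of 0.074 by limma, so neither passed.

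**Figure D1:**
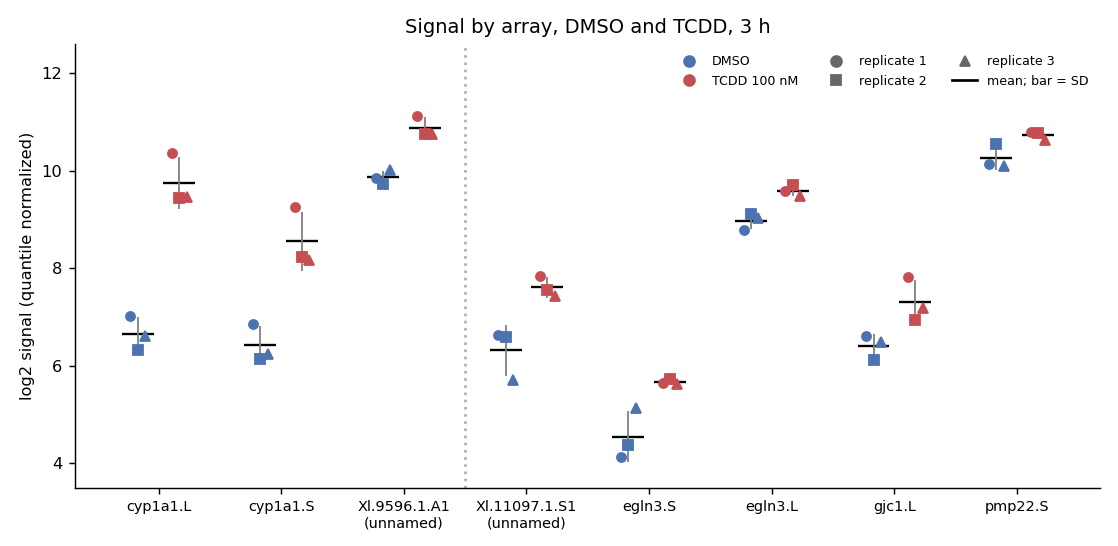
Log2 signal (quantile normalized, vertical axis) of 8 probe sets in each DMSO array (blue) and TCDD array (red), with symbols for the replicate number, a black line at the mean and a grey bar for the SD. The 3 probe sets left of the dotted line passed the test, the 5 right of it did not, and the arrays of both groups stand apart in all 8.

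For most probe sets these arrays bound the difference in signal to a moderate size. The median standard error of a log2 difference was 0.139, and the median absolute difference was 0.0976, smaller than that error. The 95% confidence interval of the difference lay wholly within 2-fold in either direction for 11489 probe sets (98.9%) and within 1.5-fold for 9310 (80.1%). The interval excluded every value within 2-fold for 2 probe sets, the copies of cyp1a1. Differences of at least 2-fold were measured in 5 probe sets, all higher (0.043%): both cyp1a1 copies, Xl.9596.1.A1_at, Xl.11097.1.S1_at and egln3.S. At least 1.5-fold was reached by 32 higher (0.275%) and 8 lower (0.0689%) probe sets, and 28 of these 40 lay among the 25% of probe sets with the lowest signal.

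What could be excluded depended on the signal. In the 25% of probe sets with the lowest signal the median standard error was 0.21 and the interval stayed within 1.5-fold for 46.1% of probe sets. In the 25% with the highest signal the error was 0.0956 and the share was 97.5%. For a dim transcript the interval therefore often left room for a change of 1.5-fold with 3 arrays per group. A call asked for more than these unadjusted intervals, since its p was adjusted over all tested probe sets. Of the 5 probe sets with differences of at least 2-fold, 3 were called, so changes past 1.5-fold could also go uncalled. The 3 TCDD arrays lay all above the 3 DMSO arrays in 493 probe sets (4.24%) and all below in 415 (3.57%). In either direction the share was 7.82%. With 3 arrays a side the smallest p of an exact permutation test is 0.1. Groups that stand apart reach that p and no lower, so standing apart is not a call.

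**Figure D2:**
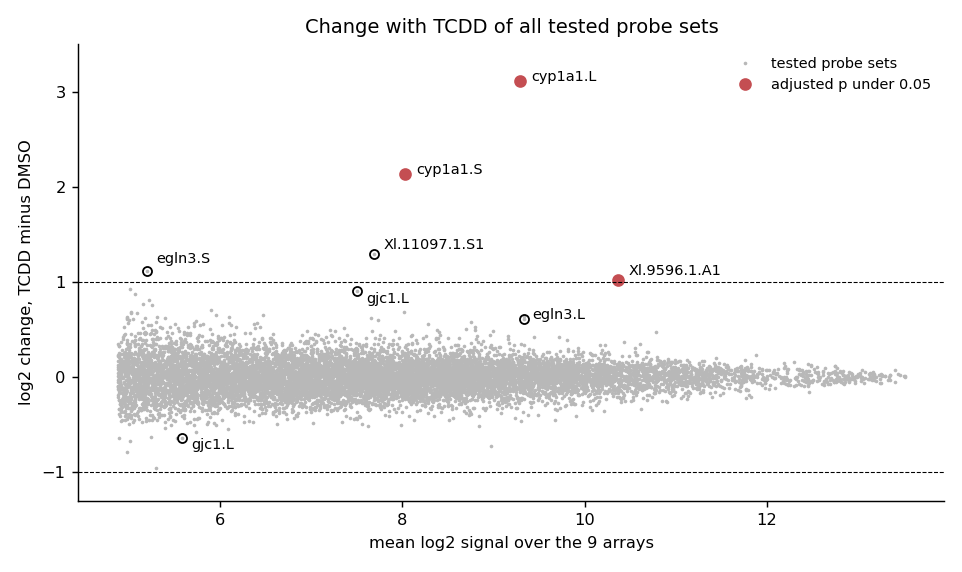
Log2 change with TCDD (vertical axis) against the mean log2 signal over the 9 arrays (horizontal axis) for all 11618 tested probe sets. The 3 called ones are in red. Open circles mark probe sets that were not called: Xl.11097.1.S1_at, egln3.S, the egln3.L probe set with the smallest p, and both gjc1.L probe sets. Dashed lines mark 2-fold. The cloud narrows to the right, no probe set lies below the lower line, and the copies of cyp1a1 stand alone at the top.

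Next in order of p came an unnamed probe set, both copies of egln3, gjc1.L and pmp22.S, none of which passed. Xl.11097.1.S1_at read 6.64, 6.60 and 5.71 with DMSO and 7.85, 7.55 and 7.43 with TCDD. DMSO replicate 3 was low, and the groups did not overlap. The log2 difference was 1.29 (adjusted p 0.058 by limma), and the call depended on the setting. It passed without any 1 of the DMSO arrays, with adjusted p values of 0.042, 0.043 and 0.024 without replicates 1, 2 and 3, and with cyclic loess (0.046), a robust trend (0.0495) and array weights (0.0021). It did not pass when any 1 of the TCDD arrays was left out.

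EGLN3 is a prolyl hydroxylase that marks hypoxia-inducible factor for destruction and is itself induced by that factor. egln3.S read 4.14, 4.37 and 5.13 with DMSO and 5.64, 5.73 and 5.62 with TCDD, apart, though the mean of its DMSO arrays was dimmer than the filter. Its log2 difference was 1.12 (adjusted p 0.72, and 0.046 without DMSO replicate 3, by limma). The egln3.L probe set with the smallest p read 8.78, 9.12 and 9.03 against 9.59, 9.70 and 9.48, a difference of 0.61 (adjusted p 0.20, and 0.043 without DMSO replicate 2, by limma). The other egln3.L probe sets had log2 differences of 0.26 and 0.23, so probe sets of the same copy gave unlike sizes. egln1.S, the related main oxygen sensor of vertebrate cells, had a log2 difference of 0.02.

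GJC1 is connexin 45, a gap junction channel protein. One gjc1.L probe set read 6.60, 6.12 and 6.49 with DMSO and 7.82, 6.95 and 7.18 with TCDD, with no overlap and a log2 difference of 0.91 (adjusted p 0.62 by limma). The other gjc1.L probe set pointed the other way, at -0.64, with 5.97, 5.68 and 5.65 against 5.80, 4.41 and 5.18. The direction for gjc1.L is therefore not settled by these arrays. pmp22.S, a membrane protein of cell junctions and myelin, read 10.14, 10.54 and 10.09 with DMSO and 10.81, 10.77 and 10.64 with TCDD. Its log2 difference was 0.48 (adjusted p 0.72), and without DMSO replicate 2, the highest control array, it was 0.62 (adjusted p 0.0065 by limma). The other copy, pmp22.L, had a log2 difference of 0.01 with a 95% interval of -0.14 to 0.16.

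Of the known AHR target genes, 8 of the 11 measured were tested, and the cyp1a1 copies were the 2 that passed, against 0.0327% of the 6114 genes called higher. The median log2 difference of the 8 was 0.22, against 0.02 over all genes tested, and 0.10 without the cyp1a1 copies. With them it was 0.10 without DMSO replicate 2, 0.14 without TCDD replicate 1 and 0.04 with array weights. The glutathione transferases gsta1.L and gsta1.S, which conjugate oxidised compounds, had log2 differences of 0.27 and 0.26. gsta1.L read 8.67, 7.94 and 8.89 with DMSO and 9.03, 8.61 and 8.69 with TCDD, and the groups overlapped. gsta1.S read 10.77, 10.14 and 10.62 with DMSO and 10.97, 10.63 and 10.72 with TCDD, and again the control values reached into the treated ones. In both copies DMSO replicate 2 was the lowest control array.

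The remaining AHR targets lay closer to 0. aldh3a2.L, an aldehyde dehydrogenase, had a log2 difference of 0.17 in its brighter probe set, with 6.84, 6.73 and 6.95 against 7.08, 7.02 and 6.92. slc7a5.L, an amino acid transporter, read 10.12, 10.19 and 10.07 with DMSO and 9.92, 9.82 and 10.07 with TCDD, a difference of -0.19 that did not pass. hes1.S, a Notch-pathway repressor, and nfe2l2.L, the stress factor NRF2, had differences of -0.08 and 0.03, with 95% intervals of -0.37 to 0.20 and -0.17 to 0.24. In all 6 arrays ugt1a6.S, ido1.L and hes1.L were dimmer than the filter. The receptor itself, its repressor AHRR and the usual readouts cyp1b1, nqo1 and tiparp were not analysed here, since no probe set carried those symbols alone.

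No component of the AHR machinery passed, and none of the 18 tested had an unadjusted p under 0.05. Their median log2 difference was -0.01 and 9 of 18 were above 0. arnt.L, the DNA-binding partner of the receptor, read 6.65, 6.95 and 6.44 with DMSO and 6.77, 7.08 and 6.93 with TCDD, overlapping groups with a difference of 0.25 (95% interval -0.07 to 0.57). The chaperone hsp90ab1.S and its cofactor ptges3.L, which hold the receptor ready for ligand, had differences of -0.02 and 0.00. The coactivators ncoa3.S (-0.25), ncoa2.S (0.15) and crebbp.S (0.13), the kinase cdk7.L (-0.21) and the factor sp1.L (-0.27) were the widest of the others. The NF-kB subunits rela.L and relb.S, which can partner the receptor, had differences of 0.10 and 0.09.

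Beyond the direct targets, no detoxification, heme or antioxidant gene passed. In the xenobiotic metabolism and transport list 14 of 21 genes had a difference above 0, against 55.1% of all genes, with a median of 0.10. The share of all genes above 0 was 49.5% without DMSO replicate 2, 56.5% without TCDD replicate 1 and 54.0% with array weights. The median of the list was 0.04 without DMSO replicate 2, 0.05 without TCDD replicate 1 and 0.17 without DMSO replicate 1. It was 0.0008 with array weights, with 11 of 21 genes above 0. The widest was gsto1.S, an omega-class glutathione transferase, which read 7.94, 7.42 and 7.87 with DMSO and 8.13, 8.11 and 8.07 with TCDD. Its groups did not overlap and its log2 difference was 0.36, with DMSO replicate 2 lowest. abcb1.L, a drug efflux pump, had a difference of 0.24 and tpmt.L, a thiopurine methyltransferase, of 0.28.

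Cytochromes P450 need heme, and 12 of the 16 tested genes of heme synthesis and breakdown lay above 0, with a median of 0.07. Without DMSO replicate 2 the count was 9 and the median 0.00, and without TCDD replicate 1 they were 10 and 0.03. With array weights they were 6 and -0.04. alas1.S, the first enzyme of heme synthesis, read 9.59, 9.77 and 9.72 with DMSO and 9.90, 9.65 and 9.71 with TCDD, a difference of 0.06 with a 95% interval of -0.14 to 0.26. The interval leaves no room for a change of 1.5-fold. alas1.L (0.04), alad.S (0.12), ppox.L (0.15), fech.L (-0.01) and urod.L (0.00), further synthesis enzymes, did not pass. hmox1.L, which breaks heme down and is a common stress marker, read 9.06, 8.47 and 8.94 against 9.61, 9.16 and 8.99. Its groups overlapped, its difference was 0.43, and its other copy hmox1.S had -0.08.

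Of the NRF2 and oxidative stress list 26 of 36 genes lay above 0 with a median of 0.06. Without DMSO replicate 2 it was 22 of 36 with a median of 0.02, and with array weights 19 of 36 with a median of 0.003. The differences of the list spanned -0.44 to 0.61, with 1 gene past 1.5-fold. sqstm1.L, an autophagy receptor induced by NRF2, had a difference of 0.35 and txnrd2.S, a mitochondrial thioredoxin reductase, of 0.17. sesn2.L, a stress-induced regulator of growth signalling, read 5.76, 5.91 and 5.89 with DMSO and 5.56, 5.31 and 5.37 with TCDD, apart and with a difference of -0.44, without passing. Heat shock and ER stress genes gave medians of -0.01 and 0.00, and 0 of 52 and 0 of 26 were called. st13.L, an HSP70 cofactor, had a difference of 0.19 and pdia3.S, a disulfide isomerase, of -0.10.

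**Figure D3:**
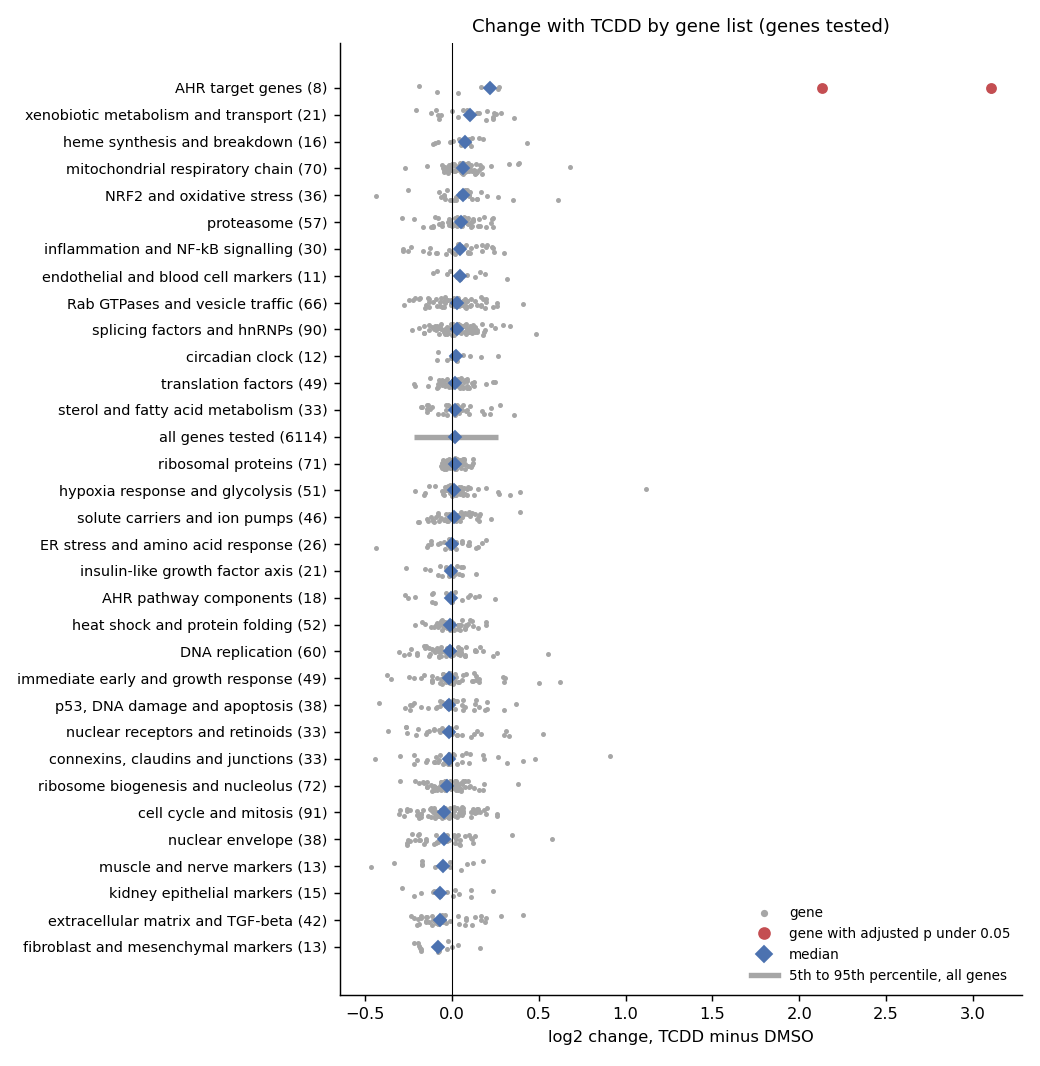
Log2 change with TCDD (horizontal axis) of every tested gene (grey points) in each of 32 gene lists, with called genes in red, list medians as blue diamonds and the 5th to 95th percentile of all genes as a dark bar. List medians lie between -0.08 and 0.22, and the red points are the 2 copies of cyp1a1.

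No signalling gene passed. In the immediate early and growth response list 22 of 49 genes lay above 0 and the median was -0.01. jund.S, an AP-1 transcription factor, read 7.17, 6.81 and 7.23 with DMSO and 8.35, 7.29 and 7.45 with TCDD. The groups stood apart, TCDD replicate 2 by a narrow margin, with TCDD replicate 1 the highest and a difference of 0.62. zfp36l1.S and zfp36l2.L, relatives that trigger decay of AU-rich messages, had differences of 0.50 and 0.30, both with no overlap. The mean of zfp36l1.S was 8.43 ± 0.25 (SD, n = 3) in the controls and 8.93 ± 0.08 (SD, n = 3) after TCDD. id3, an inhibitor of differentiation factors, pointed the other way with -0.35. So did the AP-1 gene jun.L, the lowest of the list at -0.38 (adjusted p 0.97 by limma). With array weights jun.L was called lower, at -0.66 (adjusted p 0.048 by limma).

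Junction, matrix and nuclear receptor genes were likewise mixed. Of 33 junction genes 15 lay above 0, and besides gjc1.L and pmp22.S the differences were 0.32 for the adhesion molecule pecam1.L, 0.18 for the claudin cldn5.S and -0.45 for the tight junction adaptor cgn.L. cgn.L read 9.92, 10.52 and 9.74 with DMSO and 9.77, 9.49 and 9.57 with TCDD, with DMSO replicate 2 highest and overlapping groups. In the extracellular matrix list 13 of 42 genes lay above 0, 19 of 42 without DMSO replicate 2, yet tgfbr1.S, a TGF-beta receptor, had 0.41 and sparc.S, a matrix protein, 0.28. tgfbr1.S read 7.54, 7.38 and 7.22 with DMSO and 7.69, 7.82 and 7.87 with TCDD, and sparc.S read 9.99, 9.72 and 9.99 against 10.28, 10.16 and 10.12, both without overlap. Among nuclear receptors, nr3c1.S, the glucocorticoid receptor, had a difference of 0.52 and rxra.L, a retinoid receptor, of 0.31. rdh10.L, which makes retinaldehyde, had -0.21, and none of these genes passed.

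Inflammation, damage, hypoxia and clock genes gave no call. The medians were 0.05 over 30 genes of inflammation and NF-kB signalling, -0.02 over 38 of p53, DNA damage and apoptosis, 0.01 over 51 of hypoxia and glycolysis and 0.02 over 12 of the circadian clock. xpa.L, a nucleotide excision repair factor, had a difference of 0.37. The clock gene cry2.L had a difference of 0.26 and per1.L of -0.08. Aside from egln3 the hypoxia list held aldoc.L, a glycolytic aldolase, at 0.20.

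Housekeeping lists were close to 0, and the share of their members above 0 moved with single arrays. The share of all genes above 0 moved too, from 55.1% to 49.5% without DMSO replicate 2. Ribosomal proteins spanned -0.06 to 0.12 over 71 genes, and all 71 had intervals within 1.5-fold. Of 70 respiratory chain genes 52 lay above 0 (median 0.06), but without DMSO replicate 2 the count was 31 (median -0.01). Relative to each gene's mean over the 6 arrays, the median log2 level of this list was -0.18 in DMSO replicate 2 and between -0.01 and 0.09 in the others. ndufs4.S, a subunit of complex I, was the widest and read 7.64, 7.13 and 7.98 with DMSO against 8.10, 8.34 and 8.35 with TCDD, apart by a narrow margin with a difference of 0.68.

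The proteasome list had 38 of 57 genes above 0, and 27 without TCDD replicate 2. psma3.L, a core particle subunit, had the smallest p of the list and a difference of 0.23. For ribosome biogenesis 28 of 72 lay above 0, a count that was 40 without DMSO replicate 2, 45 without TCDD replicate 1 and 12 without TCDD replicate 2. With array weights it was 49. nop14.L, a factor of small-subunit assembly, had 0.38 in that list and rrp12.S, an export factor, -0.30. Splicing factors had 55 of 90 above 0, led by ddx39b.L, an RNA helicase of splicing and export, which read 8.69, 8.94 and 8.50 against 9.02, 9.35 and 9.20 and differed by 0.48. None of these genes passed. The median of the proteasome and ribosome biogenesis lists changed sign with the array left out, and that of the splicing list stayed between 0.01 and 0.04.

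Genes of proliferation did not pass either. Of 91 cell cycle genes 31 lay above 0 (median -0.04), and the count was 42 without DMSO replicate 2 and 46 without TCDD replicate 1. With array weights the count was 64 and the median 0.04. smc4.L, a condensin subunit, read 9.80, 10.18 and 9.92 with DMSO and 9.65, 9.62 and 9.71 with TCDD, apart with a difference of -0.30. tpx2.L, a spindle assembly factor, had -0.26 and ccnd1.S, a G1 cyclin, 0.26. Over 60 DNA replication genes the median was -0.01, with rpa3.S, a single-strand DNA binding subunit, at 0.55 and mcm10.L, an origin factor, at -0.31. rpa3.S read 8.05, 7.47 and 8.32 against 8.54, 8.44 and 8.52, and DMSO replicate 2 was again the low control.

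Over the 1245 tested genes in any list, 33 were higher and 10 lower at an unadjusted p under 0.05, beside 159 (2.6%) and 56 (0.916%) of all 6114 genes. The TCDD arrays lay all above the DMSO arrays in 58 of the 1245 and all below in 32, beside 312 (5.1%) and 192 (3.14%) of all genes.

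The named probe sets with the largest differences among those with no overlap were spread over unrelated functions. Below cyp1a1 and egln3.S came carnmt1.S, a carnosine methyltransferase, which read 4.83, 4.04 and 4.41 with DMSO and 5.18, 5.56 and 5.30 with TCDD and differed by 0.92. Besides gjc1.L, ndufs4.S, jund.S and egln3.L, described above, the others included bmp1.S, a procollagen protease (0.69), elf2.L, an ETS factor (0.65), sf3b6.S, a splicing factor subunit (0.64), lyn.L, a Src-family kinase (0.60), kcnk1.L, a potassium channel (0.59), and dlx5.L, a homeobox factor (0.58). The DMSO means of carnmt1.S (4.43), bmp1.S (4.54), lyn.L (4.58) and dlx5.L (4.86) were dimmer than the filter, so these probe sets passed it through their brighter arrays. None of these 7 passed, with an adjusted p of 0.97 by limma for each. A second bmp1.S probe set gave 0.13 and a second elf2.L probe set 0.18. polr2i.S, an RNA polymerase II subunit, was listed at 0.63 in a single probe set, while other tested probe sets given that symbol lay between -0.27 and 0.32, so its direction is uncertain.

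The named differences toward lower signal were smaller, and none passed. Among probe sets without a single symbol, the largest falls with no overlap were Xl.2899.1.S1_at (-0.72) and Xl.15263.1.A1_at (-0.64). Neither passed, and the lowest difference of all tested probe sets was -0.96. manba.L, a lysosomal mannosidase, read 6.47, 6.40 and 6.29 with DMSO and 5.48, 6.12 and 5.93 with TCDD, a log2 difference of -0.54. b3gnt3.2.L, a glycosyltransferase, had -0.54, maz.S, a zinc finger factor, -0.51, tnc.L, a matrix glycoprotein, -0.49, and ets1.L, an ETS factor, -0.44. A second ets1.L probe set gave 0.26. A second tnc.L probe set gave -0.15, and its sign changed under 3 of 17 alternatives. A single high control marked chd4.L and dst.L. chd4.L, a nucleosome remodeller, read 9.37, 10.19 and 9.38 with DMSO against 9.27, 9.10 and 9.18. dst.L, a cytoskeletal linker, read 8.07, 9.05 and 8.12 against 7.97, 7.90 and 8.01. In both, DMSO replicate 2 was the high array and the other controls lay close to the TCDD arrays.

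DMSO replicate 2 was often the highest or lowest control, over all tested probe sets too. It was the lowest control in 10 of the 15 largest named differences above 0, beside 42.2% of all tested. Of the 15 below 0 it was the highest control in 6, near the 38.2% of all tested, and also the lowest in 6. TCDD replicate 1 was the highest TCDD array in 10 of the 15 above 0, beside 39.0% of all tested. Among the probe sets whose groups stood apart, DMSO replicate 2 was the lowest control in 59.0% of those higher with TCDD. It was the highest control in 56.1% of those lower. The same shares over all tested probe sets were 42.2% and 38.2%. Without DMSO replicate 2 the median of the 15 above 0 was 0.71 in place of 0.65. That of the 15 below 0 was -0.48 in place of -0.45.

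**Figure D4:**
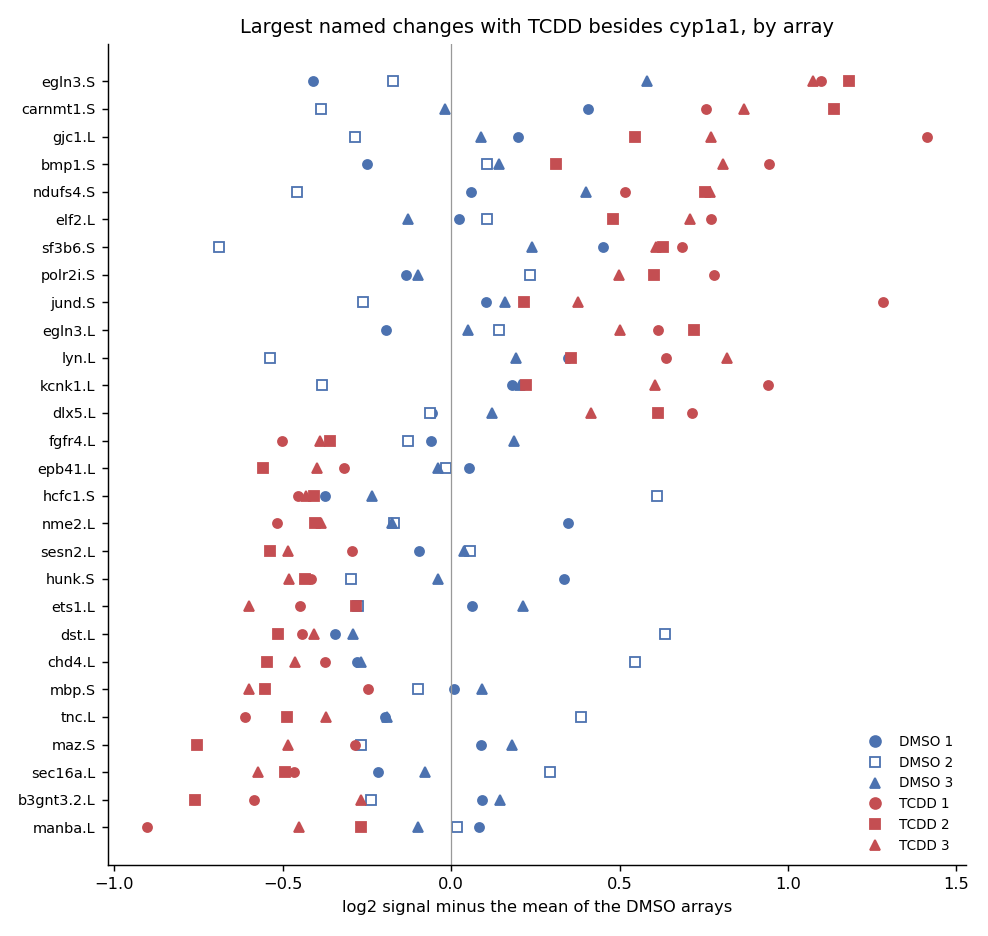
Log2 signal of each array minus the mean of the DMSO arrays (horizontal axis) for the named probe sets with the largest differences besides cyp1a1, with DMSO arrays in blue and TCDD arrays in red. The groups stand apart in each row because the rows were chosen that way. DMSO 2, the open square, often lies farthest from the TCDD arrays.

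The paired copies gave a reading within the same arrays. Both copies were tested for 762 genes, and over these pairs the TCDD differences of .L and .S correlated at r = 0.44, or 0.20 without cyp1a1. These are descriptions across genes that share the same 6 arrays, and whether probes for one copy also read the other was not examined. The brightest probe set stood for each copy. The sign was the same in 60.2% of pairs, and in these probe sets cyp1a1 was the 1 pair with both copies past 1.5-fold in the same direction. A dimmer probe set of egln3.L, at 0.61, would place egln3 beside it. Both copies had an unadjusted p under 0.05 in 6 pairs, of which 4 were higher in both and 1 lower in both.

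The pair that was lower was sec16a, a scaffold of ER exit sites. sec16a.L read 7.70, 8.21 and 7.84 with DMSO and 7.45, 7.42 and 7.34 with TCDD, a difference of -0.51 with no overlap. sec16a.S read 7.31, 7.90 and 7.46 against 7.05, 7.37 and 6.84, a difference of -0.47 with overlap by a single array. In both copies DMSO replicate 2 was the highest array, and neither passed by limma. For 959 genes with several tested probe sets, the differences of a gene's probe sets spanned a median of 0.119 and a 95th percentile of 0.395, so a difference of 0.4 in a single probe set is of the size by which probe sets of the same gene can part.

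**Figure D5:**
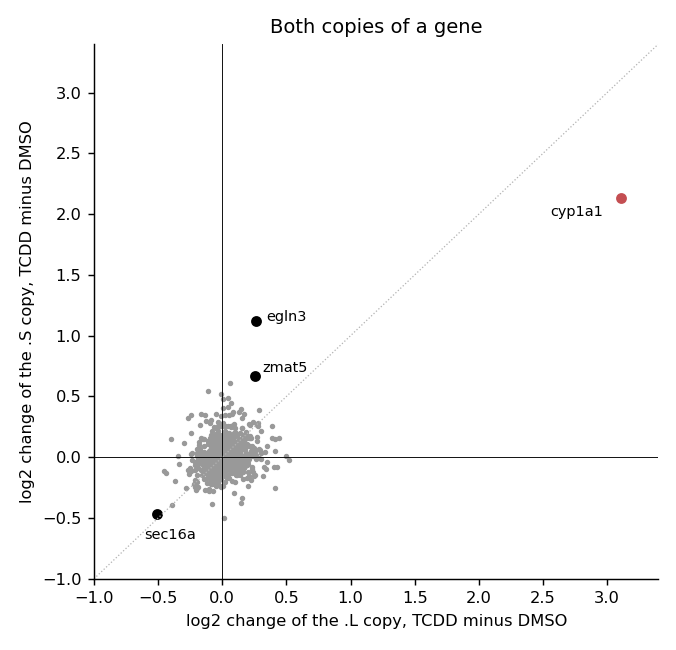
Log2 change with TCDD of the .S copy (vertical axis) against that of the .L copy (horizontal axis) for 762 genes with both copies tested. The dotted line marks equal change. cyp1a1 (red) lies far from the cloud, and egln3, sec16a and zmat5 are marked in black.

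Genes known from the FICZ arrays of the series are given side by side, since both ligands were set against the same DMSO arrays. cyp1a1.L read 11.52, 11.47 and 11.41 with FICZ, above all 3 TCDD arrays, and the FICZ minus TCDD difference was 1.71 (adjusted p 0.0025 by limma). For cyp1a1.S that difference was 0.57 (95% interval 0.03 to 1.10) and did not pass. syne1.L, a nuclear envelope linker, differed from DMSO by 0.57 with TCDD and 2.80 with FICZ, and its FICZ minus TCDD difference of 2.23 passed (adjusted p 0.00026 by limma). gjc1.L had 0.91 and 2.37, pecam1.L 0.32 and 1.35, sbk1l.L 0.26 and 1.54, and the clock output gene dbp.L 0.10 and 1.26. With TCDD the other tested sbk1l.L probe sets lay between -0.07 and 0.13, and the second gjc1.L probe set at -0.64. alas1.S had 0.06 and 0.84. None of these 6 genes passed with TCDD, although with array weights syne1.L (adjusted p 0.046 by limma) and gjc1.L (0.048) did, and the 95% interval for dbp.L, -0.41 to 0.62, excludes a 2-fold change with TCDD.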

How the data were processed

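RNA of 9 flasks was read on Affymetrix Xenopus laevis arrays. The values the authors deposited fit a log2 scale and are floored at 0, which 20 to 52 probe sets per array reached. Per the submitters' processing notes GCOS was used. Not given in the sources used here are its version, the signal algorithm, the scaling and the log step, and the log base was inferred from the values. The 120 control probe sets were left out and the other values quantile normalized over the 9 arrays. The tests left out probe sets whose mean was below log2 4.88, the 25th percentile. Group means over all 9 arrays were fitted with lmFit and moderated by eBayes with an intensity trend (limma 3.58.1, R 4.3.3; residual degrees of freedom 6, prior 7.82). The p values of TCDD minus DMSO are two-sided, with Benjamini-Hochberg adjustment across the 11618 probe sets tested. The code was first tested on simulated data. Tables and figures used Python 3.11.15, pandas 2.3.3, numpy 2.4.6 and matplotlib 3.10.9.

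Gene symbols came from the platform annotation where it gave exactly 1 symbol (9304 of 15491 probe sets), of which 9227 were matched by gene identifier to the RefSeq gene table of Xenopus laevis and 2 updated. The brightest probe set stood for a gene in the 32 lists. Named are the called probe sets, the 15 largest rises and falls without overlap, the 10 smallest p, all AHR and heme genes, up to 4 members per other list by p, their other copies and probe sets, prolyl hydroxylases, up to 8 genes called with FICZ, and markers used to check the label. Genes with a symbol that were called lower with array weights are named too. Members and lists were chosen with earlier results of these data known. Alternatives tried were the normalization, filter, variance prior, array weights, a replicate block, the arrays in the fit and leaving out each array. Same-numbered TCDD and DMSO arrays had deviations correlated at 0.48, 0.27 and -0.004, and those of unlike number at -0.36 to 0.25. These values do not settle whether equal numbers are paired. The labels state no pairing, so the main fit took none. Sequences and probe positions were not used here.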

Additional observations from a re-analysis of the deposited data

How the results depend on the processing

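The count of called probe sets, 3, was 3 or 4 with the deposited values, cyclic loess, no filter, a filter at the 50th percentile, a robust trend and TCDD and DMSO arrays alone, all higher with TCDD. It was 1 without the variance trend, where cyp1a1.S kept its log2 change of 2.13 with an adjusted p of 0.10, and 0 without a shared prior, where 418 had an unadjusted p under 0.05 and the log2 changes of cyp1a1.L (3.11, adjusted p 0.54) and cyp1a1.S (2.13, adjusted p 0.97) did not pass. Array weights gave 22, 16 higher and 6 lower, with a weight of 9.0 for TCDD replicate 3 and 0.18 for DMSO replicate 2. The higher ones included Xl.11097.1.S1_at, egln3.L, egln3.S, gjc1.L, pmp22.S, syne1.L, ndufs4.S and ddx39b.L, with adjusted p values from 0.0021 to 0.048. The named genes among the 6 lower ones were jun.L (-0.66), clk2.L (-0.64) and fzd7.L (-0.58). Leaving out 1 array gave 3 to 7, with 7 without DMSO replicate 2 and 5 without DMSO replicate 3, and log2 changes of 2.80 to 3.29 for cyp1a1.L and 1.78 to 2.35 for cyp1a1.S. A replicate block gave 4 probe sets over 9 arrays and 5 over TCDD and DMSO arrays alone. The first takes the FICZ numbers from the titles, which differ from those in the descriptions. Both called Xl.11097.1.S1_at (adjusted p 0.0041 and 0.00017), and the second also called gjc1.L (0.012). The 3 called probe sets were kept in all 17 alternatives but those without the trend (1 kept) and without the prior (0 kept). None reversed. Of 212 named probe sets that did not pass, 8 passed under at least 1 alternative and 54 changed sign under at least 1. The 212 leave out jun.L, clk2.L and fzd7.L, which passed with array weights. The cause was not tested. With 3 arrays per group, differences in dim transcripts were often not detectable, also past 1.5-fold, and detection calls were not used here. With array weights the median of the sterol and fatty acid list went from 0.02 to -0.10. That of the nuclear envelope list went from -0.05 to 0.05. The kidney epithelial and the muscle and nerve lists went from -0.07 and -0.05 to -0.20 each. Splicing factors and ribosomal proteins had 0.02 and 0.01, beside 0.03 and 0.02 in the main fit. The counts of list members above 0 and the medians of the largest differences without single arrays were added after seeing the data.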
